A study of Danio rerio with 6 samples.

Results

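Crystallins are the abundant soluble proteins of the vertebrate lens. The α-crystallins belong to the small heat shock proteins and act as chaperones that hold damaged proteins in solution. The β- and γ-crystallins share a common fold and pack densely in lens fibre cells, where they give the lens its refractive index, and fishes carry a large γM group of their own. Probes of this gene family were taken from a microarray comparison of *vhl* mutant and wild-type zebrafish. A probe was counted as a member where the symbol of its gene began with *cryaa*, *cryab*, *cryba*, *crybb*, *crygm*, *crygn* or *crygs*, which leaves out the enzyme gene *cryl1* and the clock cryptochromes. Of 41031 zebrafish probes, 3159 carried a symbol here, and among those the rule found 9 probes of 9 genes. There were 2 α genes (*cryaa* and *cryabb*), 4 β genes (*cryba1b*, *crybb1*, *crybb1l2* and *crybb1l3*) and 3 γ genes (*crygm1*, *crygm2d21* and *crygn2*). The RefSeq gene table lists 57 zebrafish genes under the same symbols, of which 3 are α, 13 are β and 41 are γ, so the γM copies are those most thinly covered by named probes. Each of the 9 genes was read by 1 named spot per array. Further probes of these genes, or of others in the family, may lie among the probes without a symbol. All 9 spots were well above background on 3 of 3 arrays of each group, with 0 saturated and 0 outlier-flagged spots, so all 9 passed into every comparison.

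Each array held cRNA from 1 pool of 30 whole embryos at 4 dpf, in a strain labelled TL/LWT mix. Wild-type was represented by replicates 2, 3 and 4, and embryos with a mutation of *vhl* (the von Hippel-Lindau gene, whose product targets HIF-α, the oxygen-regulated part of the Hypoxia Inducible Factor, to the proteasome) by replicates 1, 3 and 4. The study's methods describe the mutation as the *hu2117* allele, homozygous and bred in a line with a *phd3::EGFP* reporter of hypoxia, and whether the wild-type pools carried that reporter is not given in the sources used here. The question put to the crystallins is whether their transcripts differ once loss of *vhl* has activated the response to hypoxia. The *vhl* transcript itself could not serve as a check of the labels, since 0 probes carried that symbol. In RNA of whole embryos, fewer lens cells and less RNA per lens cell cannot be told apart.

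The values are log2 intensities after background correction and quantile normalisation, so a difference of 1 is a 2-fold change, and the level of one gene is not read against that of another, since probes differ in brightness. Here a gene is called changed where limma gave it an adjusted p no higher than 0.01 and its level differed at least 2-fold. The 3 wild-type arrays lay on 1 slide and the 3 *vhl* mutant arrays on another (0 of 2 slides held both). Each slide was also scanned on its own day. Slide, scan day and genotype therefore cannot be told apart in any value given here. The 10 probes for the E1A spike-in, which carry no embryo RNA, averaged 11.06 ± 0.22 on the wild-type arrays and 11.54 ± 0.21 on the mutant ones (SD, n = 3 each), a difference of 0.48 (exact two-sided permutation test over 20 regroupings, p = 0.1, the smallest this design allows). Control spots were kept in the normalisation for these spike-in values. The part of the slide or scan day in the crystallin values was not tested.

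The gene with the largest change in the family was *crygn2*, which encodes a γN-crystallin, a form whose sequence lies between the β and γ groups. Its transcript was also the one crystallin measured by quantitative PCR in the study, with the pair of 20-base primers shown here because they mark which transcript was read. They are printed 5′ to 3′ with no part in capitals:
crygn2 forward: ggaactcccacaatgaccac
crygn2 reverse: cgcacagctccatacactga
The array probe for *crygn2* was assigned through its RefSeq accession, as were those of *cryaa*, *cryabb*, *crybb1* and *crygm2d21*, which takes no account of the measured values. The probes of *cryba1b* and *crybb1l2* were named in the study's full probe table, and that of *crybb1l3* in that table and in the study's table of changed genes. The *crygm1* probe, matched through an expressed sequence tag, took its symbol here only from the table of changed genes. As the tables were read here, the probe had to lie among the changed ones to be named. The full probe table was read only in part and may name it too.

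Of the 9 crystallin genes, 3 were called changed, *crygn2* and *crygm1* higher and *crybb1l3* lower in *vhl* mutants, where 3.22% of all probes were called (1.67% higher and 1.55% lower). The probes that carry a symbol are a selection that leans towards changed genes, with 21.6% called, whereas 4.97% of the RefSeq-named probes were called. Among the 5 RefSeq-named crystallins the 1 call was *crygn2*. With *crygm1* set aside, since its symbol came here only from the changed genes, 2 of 8 were called. When any size of change was accepted with an adjusted p up to 0.05, 5 of the 9 passed, *cryaa* and *crybb1l2* in addition, where 24.4% of all probes and 30.3% of the RefSeq-named ones did. The family did not move one way. Log2 fold changes were above 0 in 5 genes and below 0 in 4, and ran from -1.52 to 4.17 with a median of 0.29, where the median of all probes was -0.00017. In absolute size the median was 0.47, against 0.30 among probes well above background in at least 1 group. The 0.30 comes from probes with and without a symbol. It lacks the lean of the named probes and is not a like-for-like reference. After normalisation, wild-type and mutant arrays were fully apart in 8 of the 9 genes, with *cryabb* as the exception. The groups were likewise fully apart in 43.8% of all probes. Before normalisation, the median brightness of *cryba1b*, *crybb1* and *crygm2d21* also overlapped between the groups.

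**Figure D1:**
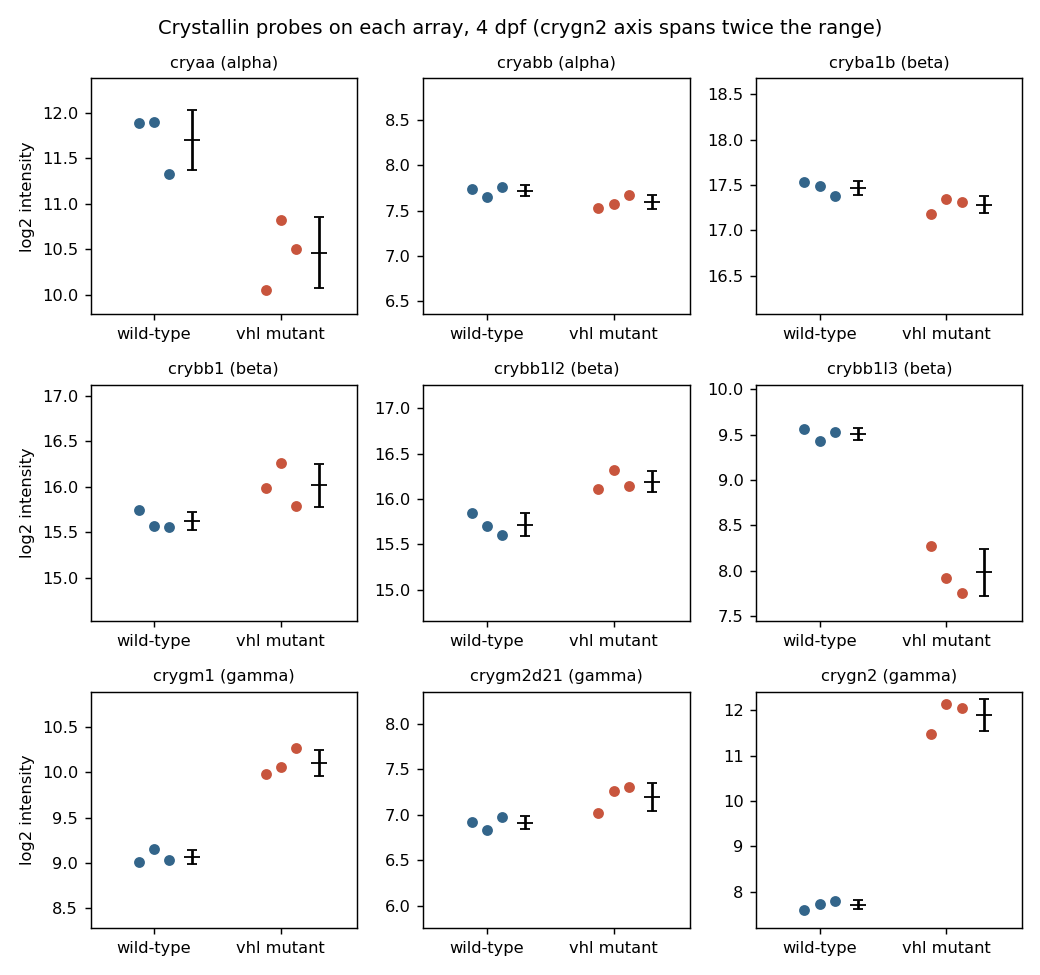
Log2 intensity (y axis) of each of the 9 crystallin probes on the 3 wild-type (blue) and 3 *vhl* mutant (red) arrays, with black bars for the group mean ± SD. Every panel spans the same range of log2 intensity except that of *crygn2*, which spans a wider one, and the groups overlap only in *cryabb*.

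Both α-crystallin genes had lower values in *vhl* mutants, and neither was called. The gene *cryaa* encodes αA-crystallin, a chaperone made mainly in the lens. Its log2 intensities were 11.89, 11.90 and 11.32 in wild-type replicates 2, 3 and 4 and 10.05, 10.82 and 10.51 in *vhl* mutant replicates 1, 3 and 4. The lowest wild-type array lay 0.50 above the highest *vhl* mutant array, and both groups were spread widely, at 11.70 ± 0.33 and 10.46 ± 0.39 (SD, n = 3 each). The log2 fold change of -1.24 (standard error 0.24, 95% interval -1.83 to -0.66) is a 2.37-fold lower level. With a limma adjusted p of 0.0145, *cryaa* passed the limit of 0.05 but missed the 0.01 of a call, so it had a change larger than 2-fold without the precision for one. Before normalisation the same spot had a median brightness of 4354.5, 4070 and 2802 in wild-type and of 889, 1456 and 1313.5 in *vhl* mutants, which are likewise apart.

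The gene *cryabb* is 1 of the zebrafish copies of the αB-crystallin gene, which in mammals is expressed in heart and muscle as well as lens. It was measured at 7.74, 7.66 and 7.77 in wild-type and at 7.53, 7.57 and 7.68 in *vhl* mutants. The highest mutant array lay above the lowest wild-type array, and the log2 fold change was -0.13 (95% interval -0.30 to 0.04, limma adjusted p = 0.243). The interval leaves room for a fall of 0.30 on the log2 scale and none for one of the size measured for *cryaa*. The sign of this small difference depended on scaling and turned in 4 of the 22 alternative processings. In the RefSeq order of genes *cryabb* lies beside *hspb2*, another small heat shock protein gene, which had no named probe here.

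The 4 β-crystallin genes were split, with 2 higher and 2 lower in *vhl* mutants and only *crybb1l3* called. The gene *cryba1b* encodes an acidic β-crystallin, and its spot was very bright, with a median brightness of 188379, 179711 and 177708 in wild-type and of 141550, 162047 and 179787 in *vhl* mutants before normalisation. After it the log2 intensities were 17.53, 17.49 and 17.38 in wild-type and 17.18, 17.35 and 17.32 in *vhl* mutants. The groups were apart by only 0.03, and the log2 fold change of -0.19 (95% interval -0.37 to 0.0025) did not pass (limma adjusted p = 0.138). Its sign turned under 2 of the 22 alternatives.

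The genes *crybb1* and *crybb1l2* encode basic β-crystallins. For *crybb1* the values were 15.74, 15.57 and 15.56 in wild-type and 15.99, 16.27 and 15.79 in *vhl* mutants. For *crybb1l2* they were 15.85, 15.70 and 15.60 in wild-type and 16.11, 16.32 and 16.14 in *vhl* mutants. In both genes all mutant arrays lay above all wild-type arrays, by 0.05 in *crybb1* and 0.26 in *crybb1l2*, and replicate 3 was the highest of the mutants. The log2 fold change was 0.39 for *crybb1* (95% interval 0.07 to 0.71, limma adjusted p = 0.0794). It was 0.47 for *crybb1l2* (95% interval 0.24 to 0.70, limma adjusted p = 0.0168), which passed 0.05 at less than 2-fold. With control spots kept in the normalisation, as for the spike-in difference of 0.48, the log2 fold changes were 0.23 for *crybb1* and 0.31 for *crybb1l2*. Both are smaller than that difference. In the same setting, so were the absolute log2 fold changes of *cryabb* (-0.13), *cryba1b* (-0.21) and *crygm2d21* (0.28). Those of *cryaa*, *crybb1l3*, *crygm1* and *crygn2* were larger. Whether the slide or scan day has a part in any of them was not tested.

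The remaining β gene, *crybb1l3*, moved the other way. Its log2 intensities were 9.56, 9.43 and 9.53 in wild-type and 8.27, 7.92 and 7.76 in *vhl* mutants. The wild-type arrays were tightly grouped (9.50 ± 0.06, SD, n = 3), the mutant arrays less so (7.98 ± 0.26, SD, n = 3), and 1.16 lay between the groups. The gene fell by 1.52 on the log2 scale (standard error 0.14, limma adjusted p = 0.00151), which is 2.87-fold lower. The spot had a median brightness of 786, 680 and 765.5 in wild-type and of 227, 175 and 176.5 in *vhl* mutants before normalisation. The call was lost on leaving out any 1 of the wild-type arrays, with limma adjusted p-values from 0.0103 to 0.0114, while the log2 fold change itself stayed between -1.66 and -1.41 with each of the 6 arrays left out in turn. In the RefSeq order of genes *crybb1l3* neighbours *cryba1a*, *crybb1l2* neighbours *cryba1l2* and *crybb1* neighbours *cryba4*, and none of these acidic partners had a named probe here.

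All 3 γ-crystallin genes had higher values in *vhl* mutants. The genes *crygm1* and *crygm2d21* belong to the γM group, whose members are rich in methionine and pack into the hard, highly refractive lens of fishes. They share a chromosome with other family members, 36 in all, many of them close copies, so signal on either probe may include RNA of relatives that the array did not name. For *crygm2d21* the values were 6.92, 6.84 and 6.98 in wild-type and 7.02, 7.26 and 7.30 in *vhl* mutants, with 0.05 between the groups. This was the dimmest spot of the family, with a median brightness of 74 to 85 in wild-type and 75 to 117 in *vhl* mutants against local backgrounds of 18.5 to 25. The log2 fold change was 0.29 (95% interval 0.06 to 0.51, limma adjusted p = 0.0752). Over the 22 alternative processings it lay between 0.23 and 1.34.

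The values of *crygm1* were 9.01, 9.15 and 9.04 in wild-type and 9.98, 10.06 and 10.26 in *vhl* mutants. Every mutant array was at least 0.83 above every wild-type array, and the group means were 9.07 ± 0.07 and 10.10 ± 0.15 (SD, n = 3 each). The log2 fold change of 1.04 (95% interval 0.81 to 1.26, limma adjusted p = 0.00155) is 2.05-fold, just past the 2-fold limit. The probe bore its symbol here only through the study's table of changed genes. The call was lost under 10 of the 22 alternatives, among them the removal of any 1 wild-type array (limma adjusted p-values from 0.0102 to 0.0114) or of *vhl* mutant replicate 4 (log2 fold change 0.95).

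The probe of *crygn2* gave 7.60, 7.74 and 7.81 in wild-type and 11.49, 12.13 and 12.05 in *vhl* mutants. No mutant array came within 3.68 of a wild-type array. The group means were 7.71 ± 0.11 and 11.89 ± 0.35 (SD, n = 3 each), and the log2 fold change of 4.17 (standard error 0.18, 95% interval 3.74 to 4.60, limma adjusted p = 0.000383) is 18.1-fold, with an interval of 13.4- to 24.3-fold. In the scanner values the median brightness was 148, 171.5 and 189 in wild-type and 2502, 3645 and 3945 in *vhl* mutants, so the spot was well above its local background in wild-type embryos too. In rank by log2 fold change the probe was number 10 of 41031. The offset added in background correction understates the change of a probe that is dim in 1 group, and without it the log2 fold change was 4.57. Over the 22 alternatives it lay between 4.05 and 5.15, and the call was lost only with no normalisation at all (4.20, limma adjusted p = 0.0263). The gene is the sole member of the family on its chromosome in the RefSeq table, with *nub1* and *rheb* beside it.

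**Figure D2:**
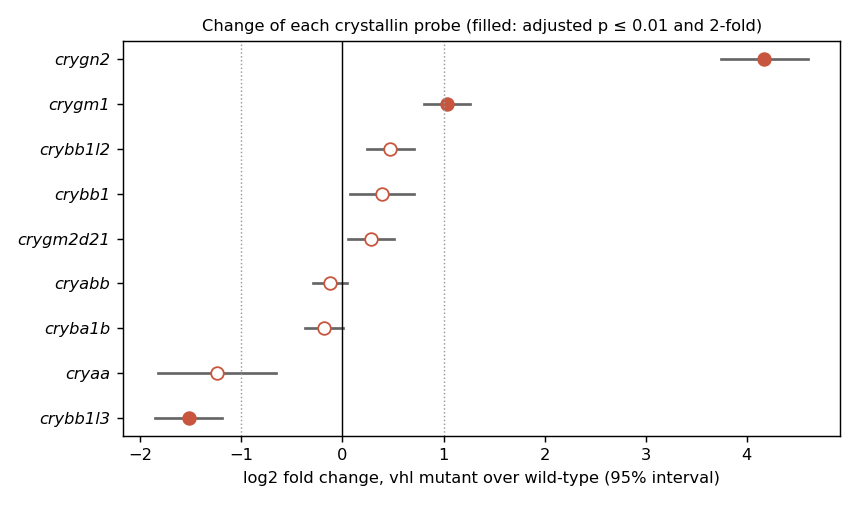
Log2 fold change (x axis, *vhl* mutant over wild-type) of each crystallin probe with its 95% interval from limma, where filled points were called and dotted lines mark 2-fold. The interval of *crygn2* (3.74 to 4.60) stands clear of all others, and those of *cryabb* and *cryba1b* include 0.

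Among the mutant arrays, replicate 1 was below its group mean in 8 of the 9 crystallin genes, with *crybb1l3* as the exception, and it was the lowest of the 3 in 7. The median deviation from the group mean was -0.11 for *vhl* mutant replicate 1, against 0.07 and 0.05 for replicates 3 and 4, and lay between -0.03 and 0.05 for the wild-type arrays. Replicate 1 thus had lower *crygn2*, *cryaa* and *crygm1* than its fellow mutants and higher *crybb1l3*. Leaving it out kept 3 genes called, with *crygn2* at 4.37. Over the array as a whole, mutant replicates also differed more from each other (median SD 0.161 among probes well above background) than wild-type replicates did (0.0955).

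The genes whose values ran most like those of *crygn2* over the 6 arrays were found by Pearson's r of log2 intensity, among 2690 symbol-carrying probes well above background. The highest were *slc16a3*, a lactate transporter gene (r = 0.9994, log2 fold change 2.28), *casp6*, a caspase gene (0.9992, 1.11), *dzip1*, a zinc finger gene with a role in primary cilia (0.9986, 2.35), *igfbp3*, which encodes a binding protein of insulin-like growth factors (0.9985, 1.32), and *kdm5ba*, a histone demethylase gene (0.9985, 1.08). All 5 were called higher in *vhl* mutants, where 8.96% of all symbol-carrying probes were, and all are lowest in *vhl* mutant replicate 1 among the mutant arrays. Both traits are those of *crygn2*, so that sharing them follows from the selection by r and is not a separate result. An r over 0.99 was reached by 72 of the 2690 probes. For each of these genes the 6 arrays form 2 separate groups. Of the 5 genes, 4 were named through the changed-gene list of the study, though its full probe table may name them too. The order is a description of these arrays.

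Other genes of the lens were read through a list of 25 lens genes that are not crystallins, of which 4 had a named probe, 1 called higher and 0 lower in limma, where 8.96% of symbol-carrying probes were called higher and 12.6% lower. At an unadjusted p under 0.05 the counts were 1 higher and 3 lower, against 20.7% and 34.7% of symbol-carrying probes. Their median log2 fold change was -0.65. The gene *sox1b*, a copy of the transcription factor gene Sox1 that drives γ-crystallin expression in the mouse, rose from 9.11 ± 0.11 to 10.29 ± 0.10 (SD, n = 3 each), a log2 fold change of 1.18 (limma adjusted p = 0.00107). Its call was lost under 6 of the 22 alternative processings, over which the log2 fold change ran from 0.94 to 1.28. The gene *maf*, whose product activates crystallin promoters in lens fibre cells of mammals, measured 10.89 ± 0.12 on wild-type and 9.92 ± 0.24 on mutant arrays (SD, n = 3 each), which at -0.97 fell just short of 2-fold (limma adjusted p = 0.00483). The gene *gja8b*, a lens connexin, was at 7.36 ± 0.06 (SD, n = 3) in wild-type and not well above background on any mutant array (0 of 3). It was at least 1.73-fold lower there, when each mutant array takes its dimmest signal flagged well above background, or the probe's own if that is brighter (limma adjusted p = 0.00254). That bound holds for the reported setting only, as the log2 fold change of *gja8b* was -0.80 there and ran from -3.30 with the deposited table of processed signals to -0.0036 with each array scaled to its 75th percentile after background correction. Both *sox1b* and *maf* were named through the changed-gene list of the study, and its full probe table may name them too. In RNA of whole embryos, the values of these listed genes may include tissues other than the lens. Log2 fold changes lay above 0 in 1 of the 4, *sox1b*, and below 0 in 3. Those 3 include the 2 named by RefSeq (median -0.65). The part of the amount of lens tissue in the crystallin values was not tested.

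The α-crystallins have relatives in the other small heat shock proteins, a list of 10 genes of which 4 had a named probe. Of these, 2 were called lower and 0 higher in limma, against 12.6% and 8.96% of symbol-carrying probes. The same counts passed an unadjusted p under 0.05, against 34.7% lower and 20.7% higher among symbol-carrying probes. Log2 fold changes lay below 0 in all 4, with a median of -0.91. The gene *hspb8*, a chaperone gene of muscle, fell from 10.64 ± 0.44 to 9.04 ± 0.23 and *hspb15* from 10.91 ± 0.09 to 9.37 ± 0.09 (SD, n = 3 each), with log2 fold changes of -1.61 and -1.54 (limma adjusted p = 0.00604 and 0.000641). The call of *hspb8* was lost under 10 of the 22 alternatives, among them the removal of any 1 array other than *vhl* mutant replicate 1 (limma adjusted p-values from 0.0132 to 0.0249), which leaves 1 gene of the list called. The value of *hspb12* was -0.28 (limma adjusted p = 0.234). Both genes called lower bear symbols from the table of changed genes.

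The lens lies in the eye beside the retina, whose genes were therefore set beside the crystallins. Of 68 genes of phototransduction and the visual cycle, 19 had a named probe, of which 10 were called lower and 2 higher, against 12.6% and 8.96% of symbol-carrying probes. With 1 array left out at a time, the number called lower ranged from 3, without wild-type replicate 4, to 13, without *vhl* mutant replicate 1. Over all 22 alternatives it ran from 0 to 13. Their log2 fold changes ran from -1.84 to 2.02 around a median of -1.11. Among the 10 named by RefSeq, 4 were called lower and 0 higher (median -0.98), where 2.51% of RefSeq-named probes were called lower. The green opsin gene *opn1mw1* fell from 16.45 ± 0.14 to 14.61 ± 0.22 (log2 fold change -1.84, limma adjusted p = 0.000993) and the blue opsin gene *opn1sw2* from 17.17 ± 0.03 to 15.34 ± 0.09 (-1.82, limma adjusted p = 0.000357, SD, n = 3 each). The cone transducin γ gene *gngt2a* went the other way, from 9.07 ± 0.10 to 11.09 ± 0.60 (SD, n = 3 each, log2 fold change 2.02, limma adjusted p = 0.00515). Its call was lost under 8 of the 22 alternatives, among them the removal of any 1 wild-type array (limma adjusted p-values from 0.0249 to 0.0290) or of *vhl* mutant replicate 3 (0.0151). A further list of 26 retinal genes was drawn up for interneurons and ganglion cells but is not limited to them. Of these genes, 4 had a named probe and 0 were called in limma, with 2 higher and 1 lower at an unadjusted p under 0.05. At that limit 20.7% of symbol-carrying probes were higher and 34.7% lower. In RNA of whole embryos, the values of this list may include tissues other than the retina. The log2 fold change was 0.86 for the retinal homeobox gene *rx1* (limma adjusted p = 0.00815), 0.28 for *isl2b* (0.0507) and -0.39 for *gad1b* (0.0861). The crystallins thus stood beside genes of phototransduction and the visual cycle that were mostly lower. Log2 fold changes were on the same side in *crybb1l3*, which was called, and in *cryaa*, *cryabb* and *cryba1b*, which were not. They were on the other side in *crygn2* and *crygm1*, both called, and in *crybb1*, *crybb1l2* and *crygm2d21*, which were not. The part of the retina in the crystallin values was not tested.

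**Figure D3:**
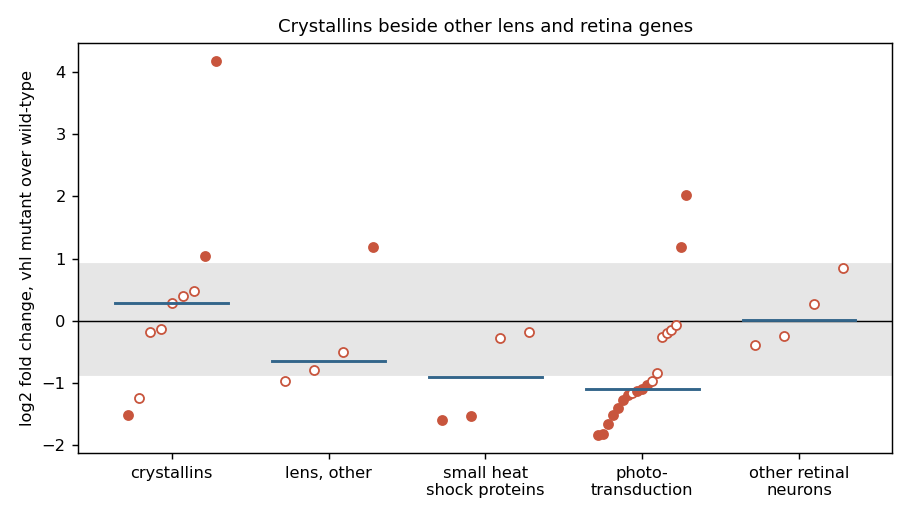
Log2 fold changes (y axis, *vhl* mutant over wild-type) of the 9 crystallins and of the listed genes of the lens, small heat shock proteins, phototransduction and retina. The last list is labelled other retinal neurons but is not limited to them. Filled points were called, blue lines are list medians (0.29 for the crystallins and -1.11 for phototransduction), and the grey band runs from the 0.05 to the 0.95 quantile of probes well above background in at least 1 group.

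The steps between scanner and limma result were varied in 22 ways for each crystallin. Leaving out dim probes and changing the variance model alter only the p-values, so neither could turn a direction (*crygn2* stayed at 4.17 in both). The direction of 7 of the 9 genes was the same in all 22, the exceptions being *cryabb* and *cryba1b*. The number of crystallins called was 3 in the reported setting and fell to 1, *crygn2*, without any 1 of the wild-type arrays. The count over all probes fell alongside, from 1322 to 624, 389 and 481 without wild-type replicates 2, 3 and 4.

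**Figure D4:**
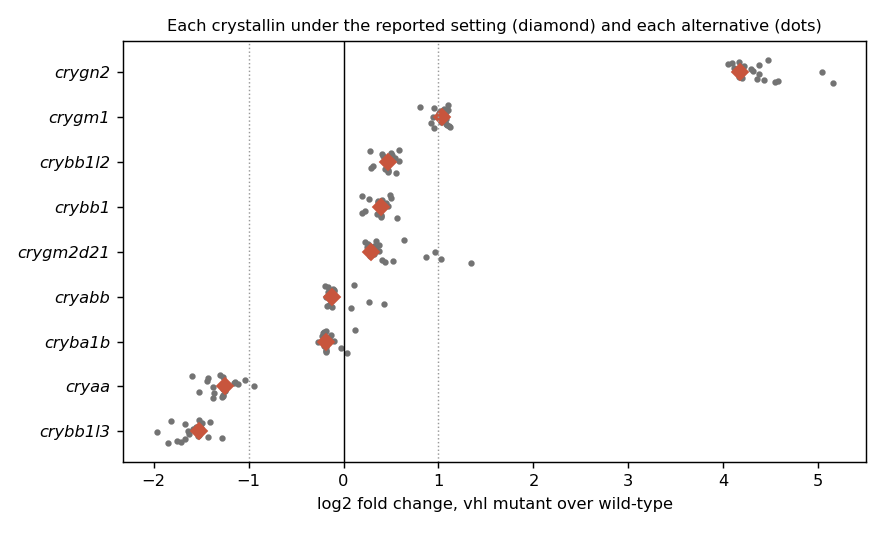
Log2 fold change (x axis, *vhl* mutant over wild-type) of each crystallin in the reported setting (diamond) and under each of 22 alternative processings (dots), with dotted lines at 2-fold. The dots of *crygn2* run from 4.05 to 5.15, those of *crygm1* lie on both sides of the 2-fold line, and those of *cryabb* and *cryba1b* on both sides of 0.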

How the data were processed

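Total RNA of 30 pooled embryos per sample was labelled with Cy3 by the authors and hybridised to one-colour arrays, read with Agilent Feature Extraction 10.7.3.1 per the file headers. The deposited intensity values used here are median pixel values of the spot and of the background around it, neither corrected nor normalised. The authors' methods name limma (3.24.10) with normexp, quantile normalisation, averaging of replicate spots, a p limit of 0.01 and a 2-fold change, and do not say whether p was adjusted. The same steps were run with limma 3.58.1 in R 4.3.3 (normexp offset 50, outlier-flagged spots set missing, control spots removed) on log2 intensities of 41031 probes, with Benjamini-Hochberg adjustment over all of them and no covariate. The script was tested on simulated data. The deposited series table, also intensity, equals Feature Extraction's processed signal and served as an alternative, with 0 columns left without a sample. The study's tables of fold changes and p-values gave only probe names.

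Groups came from sample titles. The labels do not say that pools came from separate matings, so p-values measure the spread between these pools. The number of arrays (3 per group) limits precision. Symbols came from unversioned accessions in a RefSeq table (assembly GRCz12tu, 1752 probes) and then from the study's probe tables, read here only in part (3159 probes in all). Coordinates are not given because probe sequences were not analysed here. Every crystallin probe found by the symbol rule was named. Of each list, up to 3 genes with the largest change among those well above background on all arrays of at least 1 group were named, and 5 genes most like *crygn2*. Members and lists were chosen with earlier results of these data known. Alternatives varied signal, background correction, offset, normalisation, spot filters, dim probes, the variance model, array weights, a replicate block, each array left out, and the threshold.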

Additional observations from a re-analysis of the deposited data

How the results depend on the processing

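Of the 3 crystallins called, 1 was called with normexp and 75th percentile scaling, 0 with no normalisation (9 and 3 of all probes called in those settings) and 5 at an adjusted p of 0.05 with no fold limit. Leaving out 1 array at a time gave 1 to 3 crystallins called, 1 without wild-type replicate 2, 3 or 4, while the count over all probes, 1322 in the reported setting, ran from 389 (without wild-type replicate 3) to 2169 (without *vhl* mutant replicate 1). For *crygn2* the log2 fold change was 4.05 to 4.37 with 1 array left out, and 4.20 with no normalisation, where its call was lost (limma adjusted p = 0.0263). With the replicate block, 1 crystallin was called and *crygn2* stood at 4.32 (limma adjusted p = 0.00899). Wild-type replicate 2 and *vhl* mutant replicate 1 share their number with no array of the other group. The block therefore takes them out of the comparison, which rests on replicates 3 and 4 of each group. The numbers 3 and 4 are shared between the groups, and deviations of same-numbered arrays had correlations of -0.00237 and 0.026. With 3 arrays per group these values cannot tell whether the numbers mark a pairing. With the block, and so without those unmatched arrays in the comparison, 311 of all probes were called.

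The direction turned for *cryabb*, to 0.0751 with the processed signal, 0.42 with normexp and 75th percentile scaling and 0.27 with no normalisation. It also turned for *hspb12*, to 0.51 with normexp and 75th percentile scaling and 0.36 with no normalisation. For *cryba1b* it turned to 0.0359 with the processed signal. The median of all probes lay at 0.33 with the processed signal, 0.71 with normexp and 75th percentile scaling and 0.56 with no normalisation, so each of these turned values lies below that shift. The array of *vhl* mutant replicate 3 held 2 spots whose local background was over 100 times its median. Both scalings were run again without them, a choice made after seeing the data, and 75th percentile scaling then gave 4 crystallins called, with *cryabb* at 0.11 and *cryba1b* at 0.12 where all probes had a median of 0.28. No normalisation gave 3, with a median of all probes of -0.02. In both, *cryaa* was called lower (limma adjusted p = 0.00716 and 0.00353).

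Over the same 22 alternatives, 0 to 2 phototransduction genes were called higher and 0 to 13 lower, and 3 or fewer of the other lens genes and 2 or fewer small heat shock proteins were called. Without wild-type replicate 4, 3 phototransduction genes were called lower. The causes were not tested. The 3 arrays per group limit what can be told.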
